A study of Mus musculus with 2 samples.

Results

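The genes described here are those of the mouse proteasome, the barrel-shaped protease that degrades ubiquitin-tagged proteins, with the interferon-inducible subunits of its immunoproteasome form set against the rest. Members were taken by symbol, as every gene in both count matrices whose name is Psma, Psmb, Psmc, Psmd or Psme followed by a number and that had at least 20 unique molecular identifiers (UMIs, each standing for 1 captured RNA molecule) summed over both libraries. The pattern matched 45 of 27998 genes, and 44 passed the minimum; Psmb11, the thymus form of a catalytic subunit, had 2 UMIs and was left out. Of the 44 members, 5 form the immunoproteasome group (Psmb8, Psmb9, Psmb10, Psme1 and Psme2) and 38 the other members. The last, Psmc3ip, is a meiotic recombination factor that only shares the name, and it was kept apart from both groups.

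The study profiled single bone marrow cells of C57BL/6 mice on the 10x droplet platform, and its title concerns metabolic enzymes and a progenitor with mast cell and erythrocyte potential. One library, called marrow here, held CD45+ CD3- Ly6G- marrow cells of naive mice. The other, called Car1-GFP, held CD45+ cells that expressed green fluorescent protein in reporter mice of the same background, in which the fluorescence stands for carbonic anhydrase 1 (Car1). Each library pooled 3 naive mice of unstated age after sorting, so a pool is 1 sample, the mice cannot be separated, and no p-value was computed. All intervals are 95% exact intervals and cover counting error only.

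After filtering, 6268 marrow cells (8303633 UMIs, median 1031 per cell) and 2400 Car1-GFP cells (42795219 UMIs, median 15512.5 per cell) remained, and 14 of the 2522 Car1-GFP barcodes also occurred in the marrow library. Car1 stood at 594 counts per 1000000 UMIs (CPM) in the Car1-GFP library and at 102 CPM in marrow. Against the sort labels, the Car1-GFP library held only 13 CPM of Ptprc, the gene of CD45, against 303 CPM in marrow, and the marrow library held 85.0 CPM of Ly6g and a neutrophil signature, with S100a8 and S100a9 making up 11.1% of its UMIs. S100a8, a neutrophil gene, had UMIs in 99.9% of marrow cells and in all 273 erythroid-like ones described further on, which shows how far RNA of other cells reached in that library. The Y-linked gene Ddx3y had 1143 UMIs in Car1-GFP cells and 0 in marrow, so the sex make-up of the pools differed; sort, reporter allele, sex, depth and library cannot be told apart.

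A proteasome core is a stack of rings of alpha subunits (Psma) and beta subunits (Psmb), and 3 of the beta subunits cut proteins: Psmb6, Psmb7 and Psmb5. In cells of the immune system or exposed to interferon, Psmb9, Psmb10 and Psmb8 respectively are built into new cores in their place, which changes the peptides that are made and favours those that MHC class I molecules can present. Psme1 and Psme2 encode the alpha and beta chains of PA28, an activator cap that interferon also induces. The usual cap is the regulatory particle, whose base carries 6 ATPases (Psmc1 to Psmc6) that unfold substrates and whose lid (mostly Psmd genes) receives and de-ubiquitinates them. In the erythroid lineage, protein breakdown by this system is part of the remodelling of precursors into red cells.

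Promoter sequences of the group are shown because the inducible subunits are textbook targets of interferon signalling and the constitutive ones of stress-responsive transcription factors. RefSeq promoters (build GRCm38.p6, 250 bases before to 50 after each start) were found for 37 of the 44 members. In GENCODE M21 on the same assembly, Psmb8 spans chr17:34197721-34201454 (plus strand), Psmb9 chr17:34181987-34187764 (minus), Psmb10 chr8:105935735-105938444 (minus), Psme1 chr14:55578123-55581529 (plus) and Psme2 chr14:55587441-55591113 (minus). For 5 members, the 120 bases before the start and the first 30 transcribed bases are printed 5′ to 3′, with the letters of the searched motif in capitals. Psmb5 lies at chr14:54617966-54618115 on the minus strand, Psmb6 at chr11:70525237-70525386 on the plus strand, Psmb8 at chr17:34198075-34198224 on the plus strand, Psmb9 at chr17:34187301-34187450 on the minus strand and Psme1 at chr14:55578374-55578523 on the plus strand.
Psmb8: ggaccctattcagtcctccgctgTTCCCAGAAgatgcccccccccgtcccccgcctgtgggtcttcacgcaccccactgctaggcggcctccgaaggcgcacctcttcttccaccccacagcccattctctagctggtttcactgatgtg
Psmb9: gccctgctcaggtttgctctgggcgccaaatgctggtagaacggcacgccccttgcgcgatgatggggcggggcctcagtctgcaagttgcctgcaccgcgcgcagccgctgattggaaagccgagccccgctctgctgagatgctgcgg
Psme1: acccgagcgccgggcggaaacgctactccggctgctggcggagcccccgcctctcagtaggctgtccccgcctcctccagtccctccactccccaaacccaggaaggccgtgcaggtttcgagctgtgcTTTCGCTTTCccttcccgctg
Psmb5: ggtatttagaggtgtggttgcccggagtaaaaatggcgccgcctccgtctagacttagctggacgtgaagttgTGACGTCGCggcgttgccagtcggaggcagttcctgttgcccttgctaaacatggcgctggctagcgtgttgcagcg
Psmb6: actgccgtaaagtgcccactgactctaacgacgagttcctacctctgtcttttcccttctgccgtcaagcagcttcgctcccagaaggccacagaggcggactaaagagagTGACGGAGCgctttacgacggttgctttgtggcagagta

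Capitals mark a GAS (TTCNNNGAA, an interferon-gamma activated site) in Psmb8, an ISRE core (GAAA, any 2 bases, GAAA, the interferon-stimulated element, here on the other strand) in Psme1, and an antioxidant response element core (TGACNNNGC) in Psmb5 and Psmb6. Psmb9 holds none of these letters in the window. Both strands of the full 300 bases were searched, and the ISRE core was found in 1 of 5 immunoproteasome promoters, 3 of 31 other members (Psmb3, Psmd4 and Psmd9) and 3.44% of 32851 promoters in the table. The GAS was found in 1 of 5, in 1 of 31 (Psmd2) and in 8.30% of all. The antioxidant core was found in 0 of 5, in 6 of 31 (Psmb5, Psmb6, Psmc6, Psmd12, Psmd9 and Psme4) and in 12.4% of all. These are matches of letters and not binding sites. Psmb9 and the peptide transporter gene Tap1 are read in opposite directions from starts 226 bases apart on chromosome 17, and their windows share 275 bases, so neither gene's window is its own. RefSeq starts lay 474 bases from the 5′ end of the GENCODE gene for Psmb8, 434 for Psmb9 and 371 for Psme1, against 27 for Psmb5 and 10 for Psmb6, so a window can miss the start in use. The distance was 4006 bases for Psmd5 and 58777 for Psmd9, which is counted above for the ISRE and antioxidant cores.

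The first comparison set the Car1-GFP library against marrow. By RNA, the sum of the other members was higher in Car1-GFP cells, and that of the immunoproteasome group was not. Summed over the other 38 members, expression stood at 8942 CPM in Car1-GFP cells and at 4025 CPM in marrow, a log2 ratio of 1.15 (1.14 to 1.17). The 5 immunoproteasome genes summed to 691 CPM and 855 CPM, a log2 ratio of -0.31 (-0.34 to -0.27). Of the 44 members, 27 were at least 2-fold higher in Car1-GFP cells and 1 was at least 2-fold lower; over all 12076 genes with at least 20 UMIs, 22.2% were that much higher and 32.7% that much lower. The other members had 26 of 38 higher and 1 lower with a median log2 ratio of 1.23, beside a median of -0.23 over all genes.

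None of the 5 immunoproteasome genes differed by 2-fold. Psmb8, the inducible chymotrypsin-like subunit, stood at 149 CPM in Car1-GFP cells and 244 CPM in marrow (log2 ratio -0.71, -0.78 to -0.64). Psmb9, the inducible caspase-like position, stood at 70.6 and 129 CPM (-0.87, -0.97 to -0.77). Both were thus lower in Car1-GFP cells with intervals clear of 0. Psmb10, the inducible trypsin-like subunit, had 92.6 CPM in Car1-GFP cells and 91.6 CPM in marrow, with an interval that spans 0 (0.01, -0.10 to 0.13). The PA28 chains also sat close to equal, with Psme1 at 200 and 189 CPM (0.08) and Psme2 at 180 and 203 CPM (-0.17). The sign of Psme2 depended on scaling, since edgeR's TMM factors gave 0.05 and DESeq2's size factors 0.03. Scaling by these factors moved every log2 ratio in this comparison up by 0.22 and 0.21.

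Their constitutive counterparts went the other way. Psmb5 stood at 324 CPM in Car1-GFP cells and 141 CPM in marrow (log2 ratio 1.20), Psmb6 at 433 and 201 CPM (1.10), and Psmb7 at 248 and 97.4 CPM (1.35). All 3 were thus at least 2-fold higher in Car1-GFP cells, where none of the inducible genes was. UMIs of a 3′ assay are not scaled by gene length and the capture of different genes can differ, so the level of one gene against another is read only across cells.

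**Figure D1:**
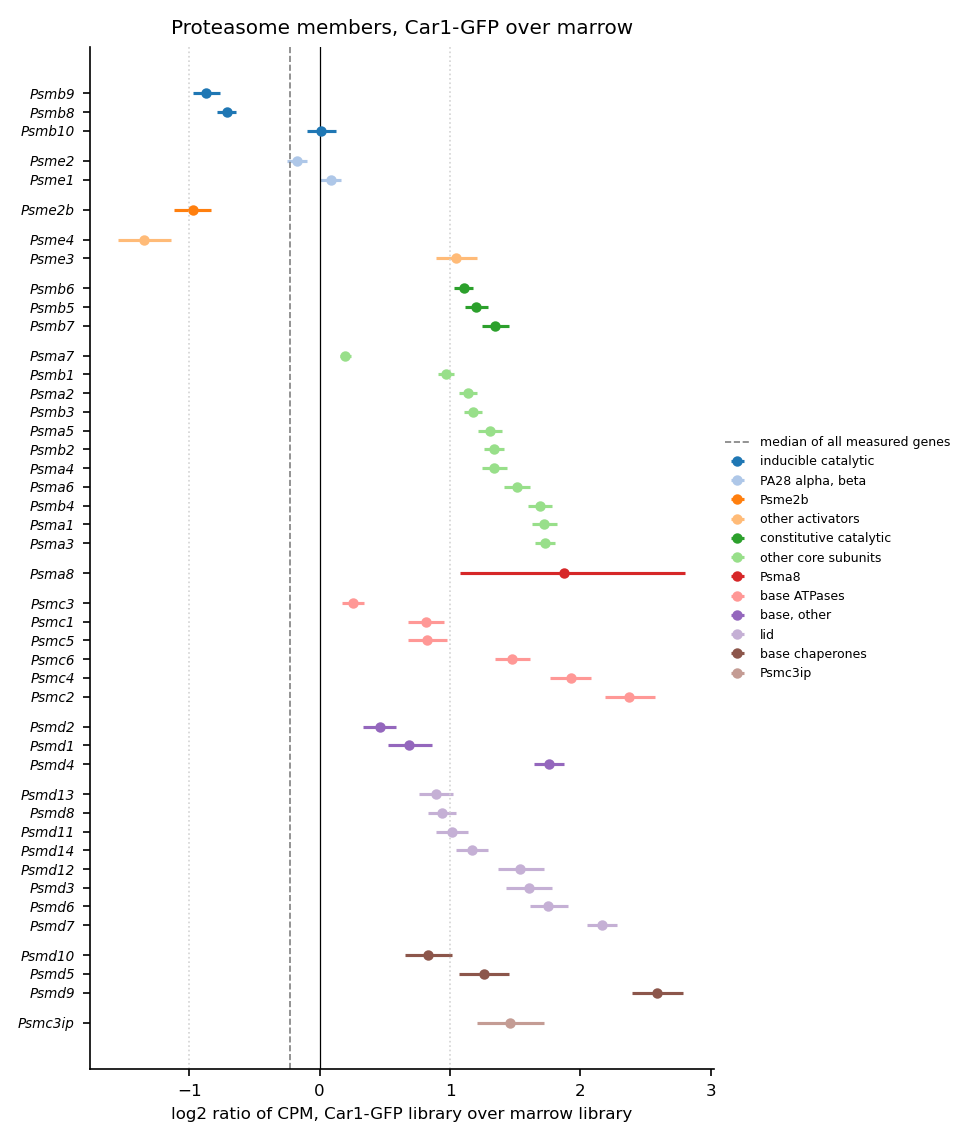
Log2 ratio of CPM, Car1-GFP library over marrow library, for each of the members by role (points, with 95% exact intervals of counting error as lines); the dashed line is the median of all measured genes (-0.23) and dotted lines mark 2-fold. The 3 inducible subunits and PA28 chains lie between -0.87 and 0.08, and the constitutive catalytic subunits between 1.10 and 1.35.

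Among the structural core subunits, which build the barrel, 9 of 11 were at least 2-fold higher in Car1-GFP cells. Psma3 (546 and 165 CPM, log2 ratio 1.73), Psma1 (1.72), Psmb4 (1.69) and Psma6 (1.51) led, followed by Psma4 (1.34), Psmb2 (1.34), Psma5 (1.31), Psmb3 (1.18) and Psma2 (1.14). Psmb1 stood at 0.97. Psma7 had 714 and 622 CPM and a ratio of only 0.20, so the core subunits did not differ by one common factor. Psma8, a testis-type alpha subunit, had 246 UMIs in Car1-GFP cells and 13 in marrow (1.88).

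The regulatory particle was as uneven. Of the base ATPases, 3 of 6 were at least 2-fold higher, Psmc2 (144 and 27.7 CPM, log2 ratio 2.38), Psmc4 (1.93) and Psmc6 (1.48), while Psmc3 (0.25), Psmc1 (0.81) and Psmc5 (0.83) were not. Psmd4, the ubiquitin receptor of the base, reached 1.76, beside 0.69 for Psmd1 and 0.46 for Psmd2, its large scaffold subunits. In the lid, 6 of 8 were higher, led by Psmd7 (340 and 75.6 CPM, 2.17), Psmd6 (1.76), Psmd3 (1.60) and Psmd12 (1.54), with the de-ubiquitinase Psmd14 at 1.17 and Psmd11 at 1.01. Psmd8 (0.94) and Psmd13 (0.89) fell short of 2-fold. The widest ratio of any member belonged to Psmd9, a chaperone that helps assemble the base, with 159 CPM against 26.4 CPM (2.59); its fellow chaperones Psmd5 and Psmd10 had ratios of 1.26 and 0.83.

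The alternative activators split. Psme3, the nuclear PA28 gamma, stood at 93 and 44.9 CPM (1.05), and Psme4, the large activator also called PA200, at 14.1 and 35.8 CPM (-1.34), the 1 member that was at least 2-fold lower. Psme2b, a near copy of Psme2 on another chromosome, stood at -0.97. Reads of Psme2 and Psme2b may have been split or lost by the counting, so the levels of both are uncertain. Psmc3ip, no subunit, had a ratio of 1.46.

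Genes that work with the proteasome were read from companion lists. Over all genes, 22.2% were at least 2-fold higher and 32.7% lower, which is the background for the counts below. Peptide loading had 0 of 12 genes at least 2-fold higher and 1 lower, Tapbpl (-3.99, a tapasin-related editor), and a median of -0.47; Tap2, a chain of the peptide transporter, stood at -0.82, while B2m, the light chain of class I molecules, stood at 0.34. Core assembly factors had 3 of 5 higher, the chaperones Psmg2 (1.73), Psmg3 (1.72) and Psmg1 (1.67). Among proteasome partners 5 of 10 measured were higher and 1 lower, with Psmf1, the inhibitor PI31, at 2.26, the ubiquitin receptor Adrm1 at 1.80 and Shfm1, a small lid subunit, at -1.73. Ubiquitin and activating enzyme genes had 1 of 6 higher, Ubb (1.01), and Uba6, an activating enzyme, stood at -1.70. Transcriptional regulators had 1 of 9 higher, Ngly1 (1.24), which processes the factor that activates proteasome genes, and 6 lower, among them the interferon regulatory factors Irf8 (-7.10) and Irf1 (-2.38) and Stat3 (-2.40). The median was 1.67 for the assembly factors and -1.57 for the regulators.

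Within the marrow library, cells were clustered without the members and companion genes, and each cluster was called by the marker genes it carried. A class name with the ending -like means only that. Because the library is 1 pool, differences between classes are differences within 1 library, and in sums over cells fewer expressing cells and less RNA per cell cannot be told apart. The erythroid-like cluster, to take the one the results turn on, was led by the globin genes Hba-a1 and Hbb-bs, Car2, Car1, Hemgn and Ermap. In all, 12 classes had at least 50 cells; a macrophage-like cluster of 26 cells was left out of comparisons.

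The inducible share, the part of catalytic UMIs that came from Psmb8, Psmb9 and Psmb10 rather than from Psmb5, Psmb6 and Psmb7, needs no scaling between cells. It was highest in NK and innate lymphoid-like cells (69.2%, 62.2 to 75.6, 166 cells), conventional dendritic-like cells (67.8%, 59.6 to 75.3, 117 cells) and plasmacytoid dendritic-like cells (66.7%, 63.0 to 70.2, 528 cells). Gngt2 monocyte-like cells, named for a G protein subunit gene, followed at 60.8% (57.1 to 64.4, 665 cells). A middle group held stem and multipotent progenitor-like (53.9%), basophil and mast cell-like (53.0%), classical monocyte-like (52.6%), B lineage-like (52.4%) and granulocyte-monocyte progenitor-like cells (48.7%). Mature neutrophil-like cells stood at 46.8% (40.2 to 53.4) and immature neutrophil-like cells at 42.0% (38.9 to 45.1). The erythroid-like class was lowest with 26.5% (22.8 to 30.5, 273 cells).

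In that order of 12 classes, neighbours had overlapping intervals, with 1 exception: the erythroid-like class lay below the immature neutrophil-like class with a gap between the intervals. The B lineage-like and basophil and mast cell-like shares rest on the fewest UMIs, with 99 and 109 cells.

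**Figure D2:**
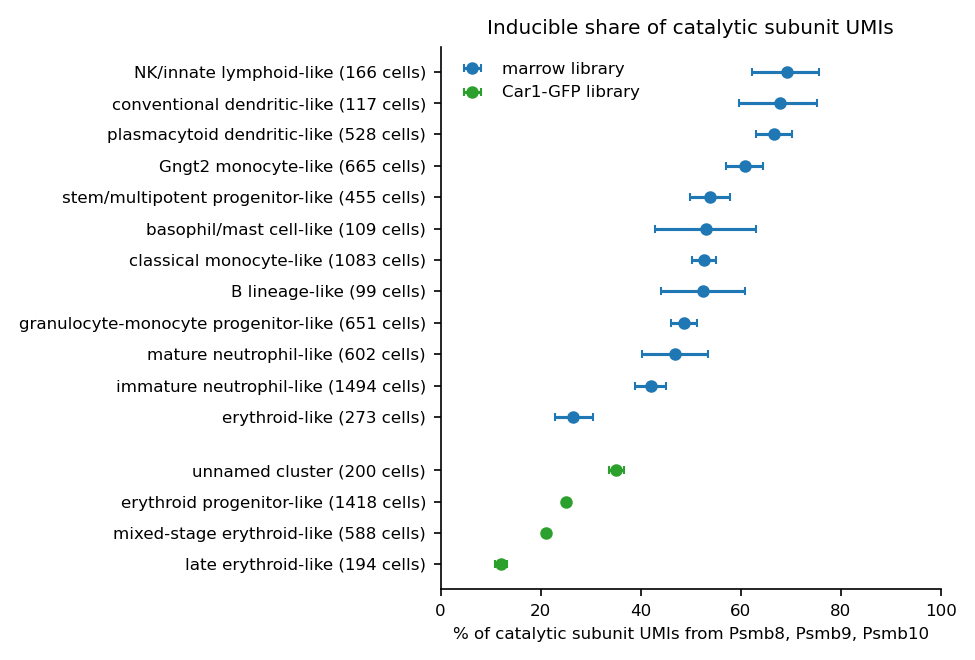
Inducible share of catalytic subunit UMIs (percent) in each marker-named class, in blue for marrow and in green for Car1-GFP cells, with cell numbers and 95% exact binomial intervals. Marrow classes run from 69.2% in NK and innate lymphoid-like cells to 26.5% in erythroid-like cells, and Car1-GFP classes from 35.1% in an unnamed cluster to 12.1% in late erythroid-like cells.

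The pairs did not move as one. Psmb8 made up 85.4% of Psmb8 and Psmb5 UMIs in NK and innate lymphoid-like cells, 83.6% in conventional dendritic-like and 79.3% in plasmacytoid dendritic-like cells, and 30.5% in erythroid-like cells. Psmb9 made up 54.3% of its pair with Psmb6 in conventional dendritic-like cells and 16.8% in erythroid-like cells; no other class with at least 50 cells passed 48.5%. Psmb10 reached 75.2% of its pair with Psmb7 in plasmacytoid dendritic-like cells. Its lowest share was 26.9% in immature neutrophil-like cells, below the 36.5% of erythroid-like cells, which makes Psmb10 the pair whose lowest class was not erythroid-like.

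By level, the order was similar. Psmb8 stood at 531 CPM (406 to 682) in conventional dendritic-like, 515 CPM (452 to 584) in plasmacytoid dendritic-like, 492 CPM (391 to 611) in NK and innate lymphoid-like and 430 CPM (378 to 488) in Gngt2 monocyte-like cells. These highest 4 classes overlap in their intervals. Classical monocyte-like cells had 330 CPM, stem and multipotent progenitor-like cells 305 CPM, granulocyte-monocyte progenitor-like cells 288 CPM, B lineage-like cells 283 CPM and basophil and mast cell-like cells 246 CPM. Far below them came immature neutrophil-like cells with 92.4 CPM, mature neutrophil-like cells with 91.8 CPM and erythroid-like cells with 61.1 CPM (45.5 to 80.3).

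Psmb9 was highest in plasmacytoid dendritic-like cells (275 CPM) and lowest in erythroid-like cells (44.3 CPM). Psmb10 ran from 181 CPM in plasmacytoid dendritic-like cells to 27.0 CPM in mature neutrophil-like cells, with erythroid-like cells at 64.7 CPM. Psme1 ran from 362 CPM in the same dendritic class to 79.5 CPM in immature neutrophil-like cells, and Psme2 from 432 CPM to 91.0 CPM in erythroid-like cells. So 4 of 5 immunoproteasome genes peaked in plasmacytoid dendritic-like cells and Psmb8 in conventional dendritic-like cells, and the lowest class was erythroid-like for 3 of 5.

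Taken against the erythroid-like class, all 5 immunoproteasome genes were at least 2-fold higher in plasmacytoid dendritic-like cells (1765 CPM summed against 352 CPM, log2 ratio 2.33, 2.13 to 2.52), where 20.9% of 6629 genes were that much higher and 19.9% lower. Of 37 other members measured in that comparison, 1 was higher and 8 were lower. All 5 were also higher in NK and innate lymphoid-like cells (2.1, background 13.4% higher and 24.1% lower), Gngt2 monocyte-like cells (2.01, background 23.4% and 27.3%) and classical monocyte-like cells (1.77, background 22.2% and 17.2%). Next came conventional dendritic-like cells with 4 of 5 higher (2.12, background 14.5% and 27.9%), B lineage-like cells with 4 of 5 (1.5, background 13.7% and 19.1%), granulocyte-monocyte progenitor-like cells with 4 of 5 (1.38, background 14.8% and 13.5%) and stem and multipotent progenitor-like cells with 3 of 5 (1.42, background 15.1% and 9.72%). Basophil and mast cell-like cells had 2 of 5 higher (1.11, background 13% and 22.2%). In none of these 9 classes, plasmacytoid dendritic-like cells included, was a gene of the group at least 2-fold lower. Neutrophil-like cells stood apart: in the immature class the sum was 0.20 (0.00 to 0.40), with 1 of 5 genes higher and 1 lower (background 14.9% and 39%), and in the mature class 0.21 (-0.05 to 0.46), with 0 of 5 higher and 1 lower (background 16% and 52%). All of these comparisons share the erythroid-like cells.

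Neutrophil-like cells were low in most members and not in the immunoproteasome alone. The other members summed to 1915 CPM in mature and 2459 CPM in immature neutrophil-like cells, against 5597 CPM in classical monocyte-like and 4550 CPM in erythroid-like cells. S100a8 and S100a9 took 313190 CPM in the immature and 353842 CPM in the mature class, so all other genes share a smaller remainder there, and its part in these levels was not tested. Of the 38 other members, 23 were lowest in mature neutrophil-like cells. The share of all genes lowest there was not computed. Against erythroid-like cells, 52% of 6170 genes were at least 2-fold lower in the mature class and 39% of 7606 in the immature class. Low levels in neutrophil-like cells are thus not particular to the members.

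The erythroid-like class was low in the summed RNA of the immunoproteasome genes and not in that of the other members. Of the 17 base and lid subunits, 8 had their highest class there and 6 in B lineage-like cells, many of them from few UMIs. Of the 14 constitutive core subunits, 6 were highest in classical monocyte-like cells, 4 in B lineage-like cells and 0 in erythroid-like cells. The share of all genes that are highest in each class was not computed, so these counts are description only. Psmd9 stood at 70.7 CPM in erythroid-like cells, the highest value of the classes with at least 50 cells. Basophil and mast cell-like cells came next with 53.9 CPM from 7 UMIs. Their log2 ratio over erythroid-like cells was -0.39 (-1.77 to 0.74), so these classes are not separated.

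**Figure D3:**
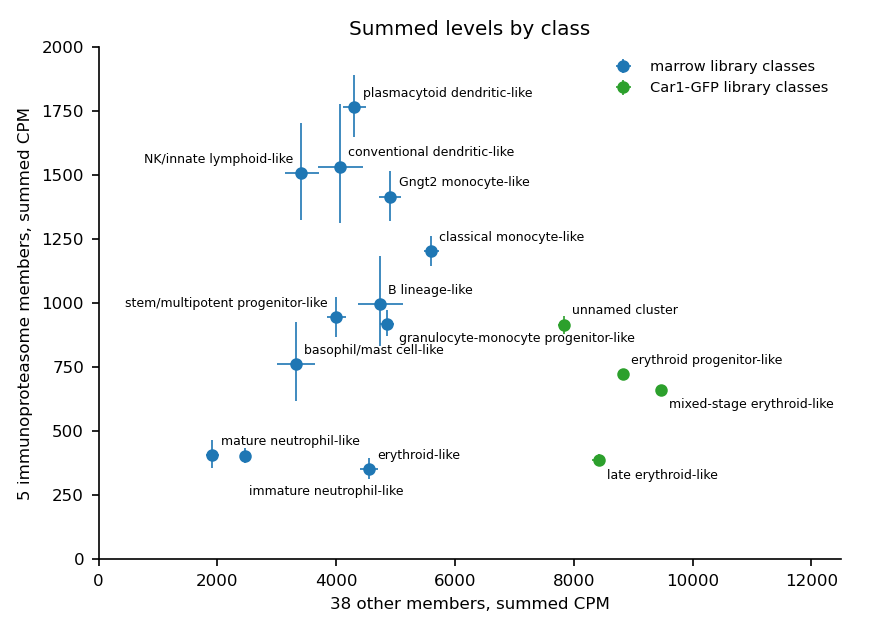
Summed CPM of the 5 immunoproteasome genes (vertical) against the summed CPM of the 38 other members (horizontal) in each class of both libraries, with 95% exact Poisson intervals. Erythroid-like marrow cells sit at 352 and 4550 CPM, plasmacytoid dendritic-like cells at 1765 and 4305 CPM, and the Car1-GFP classes lie to the right at 388 to 915 and 7828 to 9464 CPM.

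The spread over the 12 classes was taken as the SD of log2 CPM after 10 was added to each CPM, which narrows it most for low genes. It had a median of 0.73 for the 5 immunoproteasome genes, 0.53 for the 25 other members with a mean of at least 50 CPM and 0.62 for all 2598 genes at that level. The immunoproteasome genes followed their own sum with Pearson r of 0.99 (Psmb8), 0.98 (Psme1), 0.96 (Psme2), 0.90 (Psmb10) and 0.88 (Psmb9), each of which is part of that sum. Psme2b, which may share reads with Psme2, had 0.91. The constitutive partners had 0.30 (Psmb5), 0.60 (Psmb6) and 0.29 (Psmb7). All r values here are across 12 classes of 1 library, which share its depth and its free RNA, and are given as description.

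Outside the members, the 10 genes with at least 50 CPM whose class profile was most like the summed immunoproteasome (r from 0.97 to 0.91 over 12 classes) were Mndal, St8sia4, Ifi203, Pfdn5, Cd48, Rnh1, H2-K1, B2m, Anxa6 and Nfkb1. These r values too are of log2 CPM with 10 added. Mndal and Ifi203 encode nuclear DNA-sensor family proteins, St8sia4 a sialic acid polymerase, Pfdn5 a prefoldin chaperone subunit and Cd48 a surface receptor of lymphoid and myeloid cells. H2-K1 and B2m encode the chains of a class I molecule: H2-K1 was highest in NK and innate lymphoid-like cells (1194 CPM) and B2m in Gngt2 monocyte-like cells (3142 CPM). H2-K1 was lowest in immature neutrophil-like cells (180 CPM) and B2m in erythroid-like cells (855 CPM). These minima are not separated: immature neutrophil-like over erythroid-like, the log2 ratio was -0.20 (-0.47 to 0.07) for H2-K1 and 0.07 (-0.06 to 0.20) for B2m.

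The companion genes were read against the same class. Peptide loading had 6 of 10 measured genes at least 2-fold higher and 0 lower in plasmacytoid dendritic-like, conventional dendritic-like and Gngt2 monocyte-like cells. The background in these classes, in that order, was 20.9%, 14.5% and 23.4% higher and 19.9%, 27.9% and 27.3% lower. In immature neutrophil-like cells 0 of 10 were higher and 2 lower (background 14.9% and 39%), and in mature ones 0 of 10 higher and 3 lower (background 16% and 52%). Core assembly factors had 0 of 5 higher in each of the 11 comparisons, beside 13% to 23.4% of all genes. They had 4 of 5 lower in each neutrophil-like class, beside 39% and 52% of all genes, and 1 or 2 of 5 lower in each of the other 9 classes, beside 9.72% to 27.9%. The regulators had 5 of 9 higher and 0 lower in plasmacytoid dendritic-like cells (background 20.9% and 19.9%). Irf8, a transcription factor of dendritic cell and monocyte development, stood there at 2082 CPM against 50.3 CPM in erythroid-like cells. Free RNA adds to every one of these levels: scaled to the S100a8 and S100a9 level of the erythroid-like cells, the library's profile would by itself give 30.7 CPM of Psmb8, beside the 61.1 CPM found there. For plasmacytoid dendritic-like cells the same scaling gives 62.6 CPM beside 515 CPM. The scaling takes all S100a8 and S100a9 of a class as free RNA and gives that RNA the profile of the summed library. Where cells express these genes themselves it fails: immature neutrophil-like cells would have 684 CPM of Psmb8, beside 92.4 CPM found.

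In the Car1-GFP library nearly all cells carried erythroid markers. The clusters comprised 1418 erythroid progenitor-like cells, 588 mixed-stage erythroid-like cells, 194 late erythroid-like cells and 200 cells that the naming rule left unnamed. The inducible share was 25.1% (24.6 to 25.6) in the progenitor-like class, 21.0% (20.4 to 21.6) in the mixed-stage class and 12.1% (11.0 to 13.3) in the late class, with intervals that do not overlap. The unnamed cells had the highest share, 35.1% (33.7 to 36.6); against the rest of their library their leading genes included S100a8, S100a9, Elane, Mpo, Ctsg and Pf4. Elane, Mpo and Ctsg are on the granulocyte-monocyte progenitor marker list and Pf4 is on the megakaryocyte list.

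Psmb8 stood at 158 CPM in the progenitor-like, 133 CPM in the mixed-stage, 46.7 CPM in the late and 259 CPM in the unnamed cells. Psmb5 did not follow that order, with 323, 344, 266 and 296 CPM. Psmd9, the base chaperone, ran opposite to Psmb8 over the erythroid-like classes, with 135, 177 and 289 CPM.

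Thinned to 1000 UMIs per cell, a Psmb8 UMI was found in 18.0% (16.0 to 20.1) of progenitor-like cells, 13.3% (10.6 to 16.3) of mixed-stage cells and 3.09% (1.14 to 6.61) of late cells. Unthinned, at median depths of 11289, 23575 and 14968.5 UMIs, these were 84.3%, 76.2% and 47.4%. S100a8, a gene erythroid cells should lack, was found in 1.55% (0.320 to 4.45) of thinned late cells, an interval that overlaps that of Psmb8. Unthinned, S100a8 was found in 35.1% of late cells, beside 47.4% for Psmb8. Positive thinned cells are few, and the free level of Psmb8 need not be that of S100a8. This depth therefore cannot separate Psmb8 in the late class from free RNA. Psmb5 was found in 24.5%, 26.5% and 25.8% of the same 3 classes and showed no such order.

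The erythroid-like classes of the 2 libraries were then set side by side. Both are named from markers, and neither the sort nor the stage of their cells was matched: the marrow class mixes cells with and without high globin. In this comparison 23 of 44 members were at least 2-fold higher in Car1-GFP cells and 1 was lower, beside 12.5% and 27.4% of 10975 genes. The other members had 21 of 38 higher, 1 lower and a median log2 ratio of 1.03, beside -0.21 over all genes. Scaling mattered for the background: 1369 genes higher and 3011 lower became 2140 and 2129 with TMM factors and 2131 and 2149 with DESeq2's size factors, and the members' 23 and 1 became 30 and 1 with both.

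Between erythroid-like cells the immunoproteasome genes were no exception. Their sum was 675 CPM in Car1-GFP cells and 352 CPM in marrow (log2 ratio 0.94, 0.77 to 1.11), the opposite direction to that over whole libraries. Psmb8 stood at 141 and 61.1 CPM (1.20, 0.81 to 1.63), Psme1 at 198 and 91.0 CPM (1.12), Psme2 at 178 and 91.0 CPM (0.97), Psmb9 at 66.9 and 44.3 CPM (0.59) and Psmb10 at 91.5 and 64.7 CPM (0.50). All 5 were higher and 2 of 5 passed 2-fold. The constitutive partners had ratios of 1.23 (Psmb5), 0.99 (Psmb6) and 1.16 (Psmb7).

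Psmc2, an ATPase of the base, had the widest ratio (147 and 28.7 CPM, 2.35), followed by the core subunits Psma6 (1.97), Psma4 (1.74) and Psma1 (1.73). Among the other core subunits Psma2 (1.42), Psma3 (1.38), Psmb4 (1.35), Psmb2 (1.24), Psmb3 (1.09), Psmb1 (1.05) and Psma5 (1.01) passed 2-fold, and Psma7 (0.62) did not. The testis-type Psma8 had a ratio of 1.23 with an interval that spans 0. In the regulatory particle and its chaperones, Psmc4 (1.57), Psmd8 (1.30), Psmd6 (1.27), Psmd9 (1.19), Psmd14 (1.12), Psmd4 (1.06) and Psmc6 (1.01) passed 2-fold as well. At the other end lay the activator Psme4 (14.1 and 45.5 CPM, -1.69) and the base scaffold subunits Psmd1 (-0.37) and Psmd2 (-0.36). Psme3 stood at -0.17, with a sign that turned under both scalings. Of the companion lists, peptide loading had 1 of 12 higher (B2m, 1.12) and 1 lower (Tapbpl, -4.15), assembly factors 1 of 5 higher, partners 1 of 10 higher and 2 lower, and regulators 1 of 9 higher and 4 lower. Over all genes, 12.5% were higher and 27.4% lower.

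Globin accumulates as erythroid cells mature, so Car1-GFP cells were ranked by the share of their UMIs from globin genes and cut into 5 parts of 480 cells. All 2400 kept cells entered, among them the 200 unnamed ones with an inducible share of 35.1%. The median share was 0.469%, 0.520%, 0.565%, 0.639% and 2.16% from the lowest to the highest part, so the first 4 parts are close together and the highest part spans 0.750% to 54.0%. Over the first 4 parts the heme enzyme gene Alas2 stood at 10.2, 10.5, 10.2 and 11.9 CPM. The progenitor gene Gata2 stood there at 59.3, 55.1, 65.8 and 76.9 CPM. The order of these 4 parts is therefore not shown to be one of maturity. The inducible share was flat over the first 4 parts, at 25.9%, 25.8%, 26.1% and 25.5%, and 13.1% (12.4 to 13.8) in the highest. Summed immunoproteasome levels were 778, 762, 754, 709 and 439 CPM, and those of the other members 9100, 9117, 8825, 8504 and 9045 CPM. The difference between the highest part and the rest thus lay in the immunoproteasome genes and not in the sum of the others.

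Psmb8 stood at 178, 174, 170, 159 and 57.9 CPM over the parts, a log2 ratio of the highest to the lowest part of -1.62 (-1.77 to -1.47). Psmb9 stood at 79.5, 80.8, 80.5, 74.6 and 35.9 CPM (-1.15, -1.35 to -0.95), and Psmb10 at 105, 103, 101, 96.0 and 55.1 CPM (-0.93, -1.09 to -0.77). All 3 differed little over the first 4 parts and were lower in the highest. PA28 was lower by less, with Psme1 at 217 CPM in the lowest and 162 CPM in the highest part (-0.42, -0.52 to -0.32) and Psme2 at 199 and 128 CPM (-0.64, -0.75 to -0.53). Psme2b stood at -0.91.

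The constitutive partners differed little between the same parts. Psmb5 stood at 339 CPM in the lowest and 306 CPM in the highest part (-0.15), Psmb6 at 448 and 411 CPM (-0.13) and Psmb7 at 247 and 274 CPM (0.15). Under TMM and DESeq2 scaling, which add 0.16 to each ratio, the signs of Psmb5 and Psmb6 turned, and those of the 5 immunoproteasome genes did not. As a share of its pair, Psmb8 made up 34.4% in the lowest part and 15.9% in the highest, Psmb9 15.1% and 8.03%, and Psmb10 29.8% and 16.7%.

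**Figure D4:**
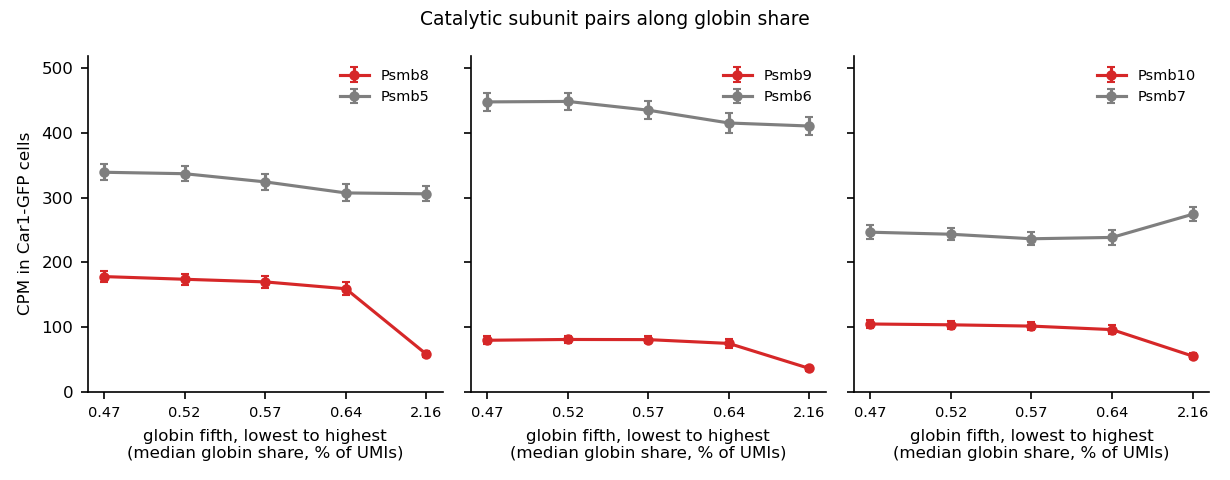
CPM of each inducible subunit (red) and its constitutive partner (grey) in 5 equal parts of Car1-GFP cells ordered by globin share (median share in percent under each point, evenly spaced and not to scale), with 95% exact Poisson intervals. Psmb8 is at 178 CPM in the lowest and 57.9 CPM in the highest part, while Psmb5 is at 339 and 306 CPM.

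Of the 44 members, 1 was at least 2-fold higher in the highest than in the lowest part and 3 were lower, beside 4.6% and 9.66% of 9913 genes. The immunoproteasome contributed 2 of the 3 (Psmb8 and Psmb9), and the last was Psma8 with 25 against 71 UMIs (-1.38). With TMM or DESeq2 scaling the split of all genes went from 456 higher and 958 lower to 601 and 685 or 607 and 669, and 2 members rather than 3 were lower. The call lost was that of Psmb9 (-0.99 and -0.98), which leaves 1 of 5 immunoproteasome genes, Psmb8, past 2-fold under both scalings. Psmd9 was the 1 member at least 2-fold higher, with 127, 136, 140, 138 and 255 CPM over the parts (1.01, 0.91 to 1.11).

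The other members had a median log2 ratio of 0.02, beside -0.16 over all genes. Their next highest ratios were those of the base ATPases Psmc6 (0.48) and Psmc2 (0.24), and after Psma8 and Psme2b the lowest were the core subunits Psma6 (-0.27), Psma4 (-0.26) and Psma7 (-0.25). Several moved across 0 with scaling, namely Psma3, Psma5, Psmb2, Psmb3, Psmc5, Psmd12, Psmd3 and Psmd8 besides Psmb5 and Psmb6. In 19 of 39 members outside the immunoproteasome, Psmc3ip included, the highest part held the highest level. Of the 5 immunoproteasome genes, 4 peaked in the lowest part and 1 in the second, where their sums were close (778 and 762 CPM). The share of all genes that peak in each part was not computed.

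Within the highest part, cut again into 4 parts of 120 cells, the inducible share was 16.1%, 11.1%, 11.9% and 13.6%, and Psmb8 stood at 83.7, 44.1, 52.3 and 54.0 CPM. Already the cells with the least globin of the part (0.750% to 1.08%) had less Psmb8 than the 159 CPM of the part below. The summed immunoproteasome stood at 501, 429, 430 and 386 CPM and Psmb10 at 68.9, 52.7, 52.3 and 44.9 CPM over the same 4. Myeloid markers summed to 84.2, 75.2, 84.7 and 308 CPM, and their part in the share of the last was not tested. Over single cells the immunoproteasome share of UMIs had a Spearman correlation of -0.33 with globin share and -0.16 with depth, and the other members of -0.05 and 0.50 (2400 cells of 1 library).

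Other properties moved with the highest part. S-phase genes summed to 2849 CPM against 1308 CPM in the lowest part and G2/M genes to 1839 against 1106 CPM. The progenitor genes Gata2 (22.7 against 59.3 CPM) and Kit (13.9 against 52.1 CPM) were lower and the heme enzyme gene Alas2 (95 against 10.2 CPM) was higher. Myeloid markers summed to 125 CPM in the highest and 301 CPM in the lowest part, with 85.5 CPM in the second, and median depth was 16943 and 16008 UMIs. Their part in the result was not tested.

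Among companion genes, peptide loading had 0 of 12 higher and 1 lower, Tap2 (-1.13), with H2-K1 at -0.72 and Tap1 at -0.63. Over all genes, 4.6% were at least 2-fold higher and 9.66% lower. Assembly factors had 0 of 5 past 2-fold in either direction, with Psmg1 at -0.69. Partners had 0 of 10, with Psmf1 at 0.83 and the ubiquitin shuttle Rad23b at -0.58. In the ubiquitin list Uba6, an activating enzyme, was lower (-1.05), and among regulators Stat3 (-1.23) and Irf8 (-1.20) were, with Nfe2l1, the factor that restores proteasome gene expression, at -0.98. The peptide loading genes had a median of -0.34, between that of all genes (-0.16) and that of the immunoproteasome (-0.93).

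The erythroid-like cells of the marrow library were also ranked by globin share, in a library the ranking above did not use and with other cuts. In 3 parts of 91 cells the median globin share was 0%, 0.213% and 5.85%, and the inducible share 27.7%, 28.1% and 19.3%, the last from 16 of 83 UMIs (11.4 to 29.4). Those intervals overlap. The summed immunoproteasome stood at 400, 371 and 216 CPM, and the other members at 4538, 4932 and 3920 CPM. For the immunoproteasome sum, the log2 ratio of the highest to the lowest part was -0.89 (-1.45 to -0.36), from 37 against 148 UMIs. Median depth was 3650, 2954 and 1567 UMIs over the same parts, and its part in that ratio was not tested. Psmb8 alone, with 23, 19 and 9 UMIs, stood at 62.2, 64.6 and 52.6 CPM and showed no difference that this depth could resolve.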

How the data were processed

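The deposited files hold UMI counts per gene and cell; per the submitters' processing notes the authors used Cell Ranger 2.1 and Seurat 2 with mm10. Cells with at least 500 UMIs and under 10% mitochondrial UMIs were kept, and Scrublet doublets (171, 2.66%) were removed from marrow; its call of 0.375% in Car1-GFP cells was below the 0.5% needed and removed none. Clustering (scanpy 1.11.5, leidenalg 0.10.2, 2000 variable genes, 30 components, 15 neighbours, resolution 1) left members and companion genes out. A cluster was named from at least 3 markers; the naming rule was set after seeing the clusters, and markers were listed earlier. Counts were summed per library, class or globin part; ratios of CPM carry exact binomial intervals and levels exact Poisson intervals at 95%, and a gene was called at 2-fold with at least 20 UMIs over both sides, with a count of 0 set to 3. Members and lists were chosen with earlier results of these data known. Named were the 5 immunoproteasome genes, Psmb5, Psmb6, Psmb7, the 3 highest and 3 lowest other members, members past 2-fold and up to 3 genes of each companion list. TMM (edgeR 4.0.16) and DESeq2 1.42.0 size factors, other filters, clusterings and globin cuts were alternatives. The ratio step was tested on simulated data. A few companion genes are not reported here.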

Additional observations from a re-analysis of the deposited data

How the results depend on the processing

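No paired analysis was possible because each group has 1 library. The summed immunoproteasome in Car1-GFP cells over marrow was -0.087 with TMM factors, -0.10 with DESeq2's size factors and -0.17 with at least 1000 UMIs per cell, and between -0.34 and -0.30 under 4 other alternatives; the median of the other members was 1.45 and 1.44 with the 2 scalings, and 2 members were at least 2-fold lower when every cell weighed equally. Between erythroid-like classes the sum was 1.25 (TMM), 1.24 (DESeq2), 1.16 with equal cell weights and 1.27 after the scaled library profile was subtracted. For the highest over the lowest globin part it was -0.67 (TMM), -0.66 (DESeq2), -0.92 with 10 parts, -0.56 with 3 parts, -1.06 in cells of the middle range of total UMIs and -0.89 in marrow erythroid-like cells; the sign held throughout. The median of the other members in that comparison, near 0, was 0.18 with both scalings and turned negative with 10 parts (-0.058), 3 parts (-0.018), the marrow cells (-0.21) and the highest of 10 parts against the lower 4 of 5 (-0.0059); the last 2 were chosen after seeing the data, and the cause was not tested. The inducible share was 55.3% without a mitochondrial limit and 55.2% at resolution 0.5 in classical monocyte-like cells, 59.6% with at least 1000 UMIs in plasmacytoid dendritic-like cells, and, with the library profile subtracted, 78.5% in NK and innate lymphoid-like and 21.2% in erythroid-like cells. The erythroid-like share was 25.2% to 27.1% under 8 other alternatives. Marrow cells are shallow, so single members there rest on few UMIs.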

Other observations

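The 200 unnamed Car1-GFP cells had the highest summed immunoproteasome of their library, 915 CPM, and the lowest summed level of the other members, 7828 CPM. Psmb8 made up 46.7% of its pair with Psmb5 there, Psmb9 23.1% of its pair with Psmb6 and Psmb10 34.9% of its pair with Psmb7. S100a8 stood at 601 CPM and Irf8 at 15.6 CPM in these cells, against 0.979 CPM of Irf8 in erythroid progenitor-like cells of the same library. Thinned to 1000 UMIs, S100a8 was found in 6.00% and Elane in 3.00% of them. Their inducible share of 35.1% lay between that of the erythroid-like and that of the immature neutrophil-like marrow cells.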
